A study of Danio rerio with 15 samples.

Results

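Loss of axin2 on top of loss of nkd1 was examined by comparing 3 axin2-/-;nkd1-/- double mutant samples with 3 nkd1-/- samples, 6 of the 15 samples of the series. The 6 samples were chosen by their genotype labels. A zebrafish strain difference runs through the same comparison, because axin2-/- fish were made in the TL strain and nkd1-/- fish in the Tu strain. The double mutant came from a cross of both lines and can carry TL segments that nkd1-/- embryos lack. Each gene that differed was therefore set against the difference between unmutated TL and Tu embryos, 3 samples each, which share no sample with the mutant comparison. The 3 axin2-/- samples were used to show where the axin2 line falls.

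Canonical Wnt signalling works by stabilising beta-catenin, which enters the nucleus and switches on target genes with Lef and Tcf factors. Axin2 is a scaffold of the complex that marks beta-catenin for destruction, and Nkd1 is an inhibitor that binds Dishevelled. Both are themselves Wnt target genes and so act as negative feedback. In the zebrafish gastrula, maternal Wnt signalling sets up the dorsal organizer, and zygotic Wnt8 signalling then forms ventrolateral mesoderm and posterior neural tissue.

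Each sample was RNA from a pool of 10 zebrafish embryos at 50% epiboly, early gastrulation, sequenced after NEBNext Ultra II library preparation. Mutations were made with sgRNA and Cas9. Replicates of a group shared their parents and differed in collection day, so the p-values below measure the spread between collections of 1 family and not between families. Libraries held 44098543 to 68135442 counts. All levels below are CPM, counts scaled to a common library size. The gastrula genes tbxta and tbx16 were abundant in every sample of both mutants (tbxta 691 to 1007 CPM, tbx16 1067 to 1275 CPM). All 21 matched markers of differentiated tissues together summed to 5.62 to 6.47 CPM in the double mutant and 6.85 to 7.82 CPM in nkd1-/-. In whole embryo pools, fewer cells of a type and less RNA per cell cannot be told apart.

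The targeted transcripts were read first. AXIN2 (ENSDARG00000100149) stood at 101, 111 and 107 CPM in the double mutant and at 77.6, 99.98 and 81.8 CPM in nkd1-/-. The ranges did not overlap, but the log2 difference of 0.29 ± 0.12 (SE) missed the threshold (edgeR adjusted p = 0.128). It passed without nkd1-/- replicate 2 (0.41, edgeR adjusted p = 0.0347). In axin2-/- embryos AXIN2 was at 94.4 ± 9.6 CPM (SD, n = 3) against 67.7 ± 5.4 CPM in TL, also without overlap. That rise was called (log2 difference 0.48 ± 0.12, edgeR adjusted p = 0.00809). Tu held 56.7, 61.4 and 70.7 CPM of AXIN2, below every nkd1-/- value. NKD1 (ENSDARG00000020053) stood at 21.5, 22.1 and 26.6 CPM in the double mutant and at 17.8, 26.0 and 21.3 CPM in nkd1-/-, with overlapping values and a log2 difference of 0.11 ± 0.19 (edgeR adjusted p = 0.787). That difference changed sign, to -0.01, without nkd1-/- replicate 1. In Tu NKD1 was at 11.0, 12.5 and 13.7 CPM. Neither transcript was low in its own mutant, so the mRNA level does not check the alleles.

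The double mutant and nkd1-/- differed in 2496 of 21614 genes tested (11.5%), 1309 higher (6.06%) and 1187 lower (5.49%) in the double mutant. Calls required an adjusted p below 0.05 in edgeR's quasi-likelihood test. The median size of the called differences was 1.14 on the log2 scale, and 1403 of them reached 1. The values of the 3 double mutant samples lay clear of the 3 nkd1-/- values in 2414 of the called genes, and in 6474 (30%) of all genes tested. The count changed when single libraries were left out, which also leaves fewer samples. It was 2207, 1563 and 1444 without double mutant replicates 1, 2 and 3 in turn. Without nkd1-/- replicates 1, 2 and 3 in turn it was 1781, 2738 and 1558.

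Part of these genes also separated the strains. TL and Tu differed in 6712 genes (31.1%), 3312 higher in TL (15.3%) and 3400 lower (15.7%). Of the 2496 called genes, 1147 (46%) passed the strain test too. That share compares with 29.1% of the genes that were not called in the mutant comparison. An excess was also seen between axin2-/- and TL, at 30.6% of the called genes and 20% of those not called. That comparison shares the TL samples with the strain comparison and its mutation with the double mutant. Whether the excess of shared calls was particular to the strains was therefore not tested. Of the 765 called genes also called between axin2-/- and TL, 400 went the same way in both comparisons and 365 the opposite way. This split was not even within the classes defined below. Called genes also had a higher median level, 5.96 against 3.62 CPM. The 1147 genes were 17.1% of the genes called between the strains. Among them, 796 went the same way, with the double mutant and TL both higher or both lower than nkd1-/- and Tu, and 351 went the opposite way. The shares were 69.4% and 30.6%.

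The remaining called genes did not pass the test between TL and Tu, which does not show equal levels. They were divided by the 95% interval of the TL minus Tu difference. In 805 genes (32.3% of the called genes) this interval lay inside -1 to 1 on the log2 scale, so a 2-fold strain difference was outside it. In 544 called genes the interval was wider and the strain difference was undetermined. Over all genes tested, 8117 (37.6%) did not pass the strain test and had an interval inside -1 to 1, a larger share than among the called genes. The undetermined genes had few reads behind them, with a median of 0.882 CPM (not corrected for length), against 7.30 CPM for the same-direction genes, 5.09 CPM for the opposite-direction genes and 18.3 CPM for the bounded genes. Their median mutant difference was 2.18 on the log2 scale, against 1.16, 1.27 and 0.71. The same-direction, opposite-direction and bounded classes held 490, 208 and 414 genes without double mutant replicate 3 and 525, 231 and 450 without nkd1-/- replicate 3. Without double mutant replicate 2 the opposite-direction and bounded classes held 230 and 425.

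**Figure D1:**
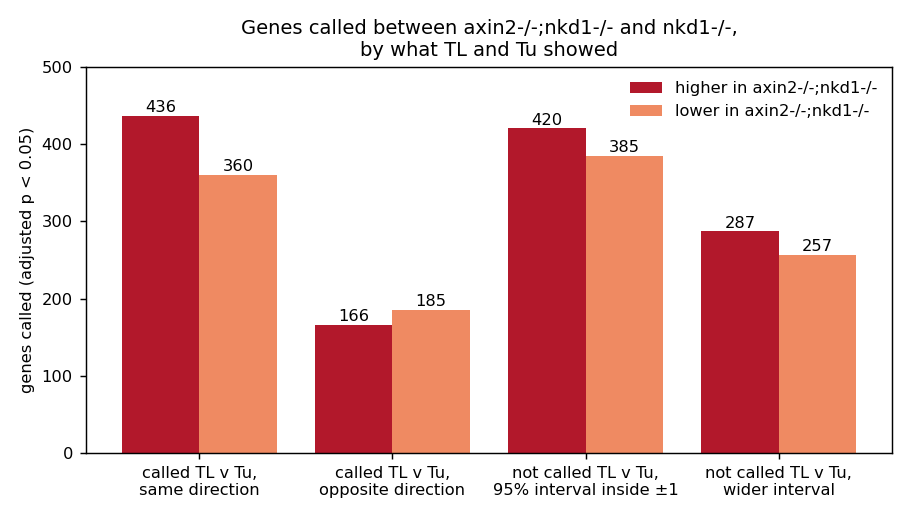
Number of genes called between axin2-/-;nkd1-/- and nkd1-/- (y axis) in each of 4 classes by the TL minus Tu difference (x axis), with dark bars for genes higher and light bars for genes lower in the double mutant. Same-direction genes (436 higher, 360 lower) and bounded genes (420 higher, 385 lower) are about equally many, and opposite-direction genes (166 higher, 185 lower) are the smallest class.

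Across genes, the mutant difference followed the strain difference only weakly. Over all 21614 genes Pearson's r was 0.124 and Spearman's rho 0.126. Over the 14711 genes averaging 1 CPM or more in the 6 mutant samples r was 0.16 and rho 0.167. Over the 1147 genes called in both, r was 0.292 and rho 0.344, a set that calling itself selected. These are correlations across genes of the same libraries, and genes are not independent replicates, so they carry no p-value. The median difference over all genes was -0.01 between the mutants and 0.00 between the strains on the log2 scale.

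**Figure D2:**
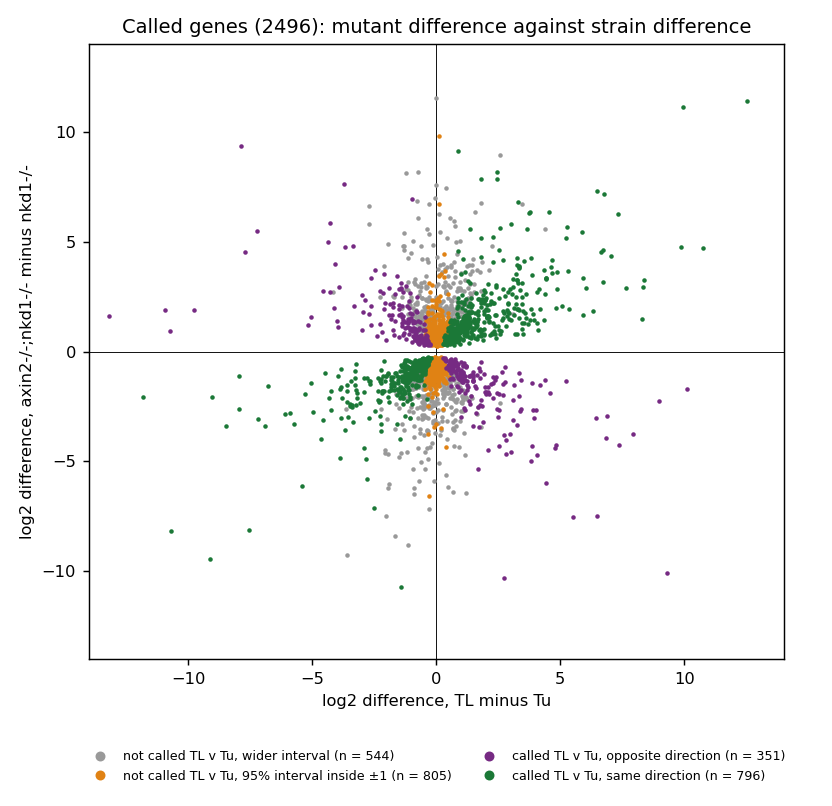
Log2 difference of axin2-/-;nkd1-/- minus nkd1-/- (y axis) against that of TL minus Tu (x axis) for the 2496 called genes, 1 point per gene, coloured by class. Same-direction genes fill the upper right and lower left, opposite-direction genes the other corners, and bounded genes form a column around 0 on the x axis; the gap around 0 on the y axis is set by the call itself.

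In the same-direction genes the mutant difference was about as large as the strain difference. The median ratio of the mutant to the strain log2 difference was 0.967, with quartiles at 0.673 and 1.26, and 587 of the 796 ratios lay between 0.5 and 1.5. In 534 of these genes (67.1%) the 6 double mutant and TL values lay clear of the 6 nkd1-/- and Tu values, a separation seen in 1102 (5.1%) of all genes tested. The axin2-/- samples fell on the TL side as well in 366 of the 534, and in 647 of the 1102. The class fixes the side of the double mutant and TL against nkd1-/- and Tu, but not where axin2-/- falls. These counts describe the class and do not test it. Similar sizes were not particular to this class. The median absolute differences between mutants and between strains were 1.16 and 1.20 here, and 1.27 and 1.17 in the opposite-direction class. Both classes require a call in both comparisons.

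The genes named below follow a rule of size, the largest rises and falls with a mean of at least 1 CPM, no overlap between the 2 groups and a usable symbol. Each kept its call between the double mutant and nkd1-/- in all 11 alternatives. The class of each gene, set by TL and Tu, was not followed in these alternatives. The strain call was near the threshold for mcama, XKR9 and ftr15 (edgeR adjusted p = 0.0493, 0.0405 and 0.0383 between TL and Tu). CXCR1 (ENSDARG00000054975), a chemokine receptor of neutrophils in mammals, was at 3.97, 6.67 and 5.73 CPM in the double mutant and at 0, 0.0826 and 0.102 CPM in nkd1-/-. TL held 5.37, 7.44 and 6.30 CPM and axin2-/- 8.69, 6.46 and 4.80 CPM, while Tu held 0.103, 0.378 and 0.317 CPM. The double mutant, TL and axin2-/- were thus high and both nkd1-/- and Tu low, with log2 differences of 6.36 ± 0.52 between the mutants (edgeR adjusted p = 4.10e-07) and 4.56 between the strains. SNCG (ENSDARG00000034423), a gamma-synuclein, was at 5.23, 5.52 and 4.41 CPM in the double mutant and at no more than 0.0437 CPM in any nkd1-/- sample. Its strain levels were 10.9 to 12.2 CPM in TL and 0.103 to 0.151 CPM in Tu, the same order of high and low groups. The axin2-/- samples also lay above nkd1-/- and Tu but were spread, at 14.7, 6.95 and 2.16 CPM. The log2 difference was 7.32 ± 0.68 (edgeR adjusted p = 1.70e-06) between the mutants and 6.47 between the strains. FLNC (ENSDARG00000018820), a filamin that crosslinks actin in muscle, was at 0.733, 88.2 and 48.1 CPM in the double mutant and at 0.453, 0.661 and 0.640 CPM in nkd1-/-. Double mutant replicate 1 sat near the nkd1-/- level and the other two nearer to TL (77.5 to 188.6 CPM), so the group was split. The log2 difference of 6.28 ± 1.11 (edgeR adjusted p = 0.00121) is a mean over these unlike samples.

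CBLN2 (ENSDARG00000077151), a secreted synapse organizer, rose from 1 detected nkd1-/- sample at 0.0377 CPM to 3.50, 3.51 and 5.49 CPM. TL was at 0.0878 to 0.208 CPM and Tu at 0 to 0.0634 CPM, so the strain difference had the same sign but both strains stayed far below the double mutant. The kinase gene mark4a (ENSDARG00000023914), whose family acts on microtubule binding proteins, was at 3.3 to 4.28 CPM in the double mutant against 0.0206 to 0.0873 CPM in nkd1-/-. TL was at 1.83 to 2.05 CPM and Tu at 0.0821 to 0.317 CPM.

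Falls of this class differed in which groups were low. PHF24 (ENSDARG00000077596), a PHD finger protein gene, was at 0.265, 0.413 and 0.426 CPM in the double mutant and at 3.85, 2.31 and 6.82 CPM in nkd1-/-. Tu was at 7.23 to 11.6 CPM and TL at 0.597 to 0.795 CPM. The mutant difference of -3.55 ± 0.43 (edgeR adjusted p = 3.56e-05) was close to the strain difference of -3.67, and the levels of the double mutant and TL were both low. FAAH2 (ENSDARG00000008457), a fatty acid amide hydrolase, had the same order, at 0 to 0.143 CPM in the double mutant, 1.77 to 3.84 CPM in nkd1-/-, 0.303 to 0.386 CPM in TL and 1.80 to 2.75 CPM in Tu. So did RASL10B (ENSDARG00000109436), a Ras-like GTPase, at 0.0688 to 0.183 CPM, 1.64 to 3.62 CPM, 0.133 to 0.176 CPM and 0.907 to 1.52 CPM in that order of groups. In axin2-/-, however, RASL10B was at 2.39 to 5.17 CPM, on the side of nkd1-/- and Tu. PHF24 in axin2-/- was at 2.71, 1.68 and 4.39 CPM, overlapping nkd1-/-. It was above TL there (log2 difference 2.09, edgeR adjusted p = 0.00117).

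The zebrafish caspase gene casp23 (ENSDARG00000014657) was not detected in the double mutant. It had no count in the 3 double mutant samples and was at 4.60, 4.42 and 3.04 CPM in nkd1-/-, at least 65.1-fold lower when each double mutant library is set at 3 counts (edgeR adjusted p = 1.45e-06). TL held 8.92, 10.6 and 11.1 CPM, Tu 38.5, 30.8 and 13.1 CPM and axin2-/- 5.75 to 12.3 CPM. The strain difference had the same sign at -1.43, but all 4 other groups expressed the gene. For ftr15 (ENSDARG00000074118), of the finTRIM family of fish, nkd1-/- stood alone, at 23.8, 9.25 and 12.98 CPM against 0.0204 to 0.204 CPM in the double mutant. TL was at 0 to 0.0699 CPM and Tu at 0.123 to 0.227 CPM, so neither strain was near the nkd1-/- level. The finTRIM genes are a large family, and near-identical copies may share reads.

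Opposite-direction genes ran against the strain difference, in some with the double mutant at the level of Tu. The interleukin 23 receptor gene il23r (ENSDARG00000052158) was at 42.7, 49.0 and 50.4 CPM in the double mutant and at 0.377, 1.34 and 0.757 CPM in nkd1-/-. Tu was at 35.9, 38.7 and 47.7 CPM, TL at 2.12, 2.54 and 1.61 CPM and axin2-/- at 1.0, 1.41 and 0.713 CPM. The double mutant therefore had the level of Tu, and nkd1-/- was below both strains (mutant log2 difference 5.85 ± 0.34, edgeR adjusted p = 7.85e-09; strain difference -4.29). The lens crystallin gene crygm3 (ENSDARG00000078189) had no count in the double mutant or in Tu and was at 1.79, 3.78 and 2.18 CPM in nkd1-/- and 1.15 to 1.89 CPM in TL. That is a difference of at least 41.8-fold with the double mutant set at 3 counts in each library (edgeR adjusted p = 0.00613). In axin2-/- crygm3 was spread, at 4.04, 0.3725 and 0 CPM. Gamma-crystallins M are a multigene family in fish, so reads may be shared between copies. DBH (ENSDARG00000069446), which makes noradrenaline from dopamine, was at 0 to 0.346 CPM in the double mutant, 1.09 to 4.44 CPM in nkd1-/-, 3.01 to 3.74 CPM in TL and 0.0945 to 0.486 CPM in Tu. In axin2-/- DBH was spread as well, at 2.19, 0.952 and 0.108 CPM.

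The opposite-direction genes mcama and nlrc5 were high in the double mutant and in axin2-/- and low in both strains. The cell adhesion gene mcama (ENSDARG00000089643) was at 22.0, 28.1 and 23.8 CPM in the double mutant and at 0.113, 0.145 and 0.306 CPM in nkd1-/-. It was at 16.7, 9.04 and 7.57 CPM in axin2-/-, at 0.316 to 0.341 CPM in TL and at 0.528 to 0.739 CPM in Tu. The double mutant and axin2-/- samples were the 6 highest of the 15, with log2 differences of 6.96 ± 0.37 in the double mutant against nkd1-/- (edgeR adjusted p = 4.25e-09) and 5.07 in axin2-/- against TL (edgeR adjusted p = 2.69e-08). The NLR gene nlrc5 (ENSDARG00000024631), which in mammals drives MHC class I expression, was at 8.37, 13.1 and 6.43 CPM in the double mutant, 0.906 to 1.20 CPM in nkd1-/- and 2.79, 5.69 and 11.7 CPM in axin2-/-. TL was at 0.473 to 0.579 CPM and Tu at 1.29 to 1.56 CPM. XKR9 (ENSDARG00000026500), of the XK family, was instead low in the double mutant, at 0.0815 to 0.160 CPM, against 1.91 to 2.62 CPM in nkd1-/- and 0.327, 2.34 and 0.973 CPM in axin2-/-. TL was at 1.04, 0.0947 and 0.0525 CPM and Tu at 0.0423 to 0.0616 CPM, so TL replicate 1 was far above the other two.

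Bounded genes are those in which the double mutant differed from nkd1-/- and a 2-fold strain difference lay outside the interval. In 307 of the 805 (38.1%) the 3 double mutant values lay beyond all 12 other samples in the direction of the call, which 6.46% of all genes tested did. In 204 (25.3%) the 3 nkd1-/- values lay beyond all 12 others, against 4.72% of all genes. Both held in 8 genes, and neither in 302. In the same-direction class the shares were lower, 16.2% and 15.8%. That class is defined by TL and Tu differing the same way, so its shares are not free of the definition. The shares were 22.5% and 16.8% in opposite-direction genes and 33.1% and 27.2% in undetermined genes. Over all called genes they were 27.8% and 21.5%, so such positions were not particular to bounded genes. These counts were added after the data were seen and are descriptions, since a called gene has to be separated in the first place.

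Among the 5 largest bounded rises, the double mutant exceeded every other sample in 2 and nkd1-/- lay below every other sample in 2. The galectin gene lgals3b (ENSDARG00000044001), whose product binds beta-galactosides, was at 29.1, 35.4 and 32.8 CPM in the double mutant and at 2.08, 4.17 and 2.78 CPM in nkd1-/-. TL, Tu and axin2-/- samples lay between 1.89 and 5.42 CPM. The double mutant was thus above every other sample, by 3.43 ± 0.30 on the log2 scale against nkd1-/- (edgeR adjusted p = 8.94e-07). The interleukin 12 receptor-like gene il12rb2l (ENSDARG00000074850) was at 22.0, 20.0 and 21.8 CPM in the double mutant and at 1.04, 0.991 and 0.917 CPM in nkd1-/-. TL was at 1.04 to 1.42 CPM and Tu at 0.697 to 1.30 CPM, while axin2-/- was at 9.31, 7.45 and 7.22 CPM. Its difference was 4.44 ± 0.23 in the double mutant (edgeR adjusted p = 4.25e-09) and 2.76 in axin2-/- against TL (edgeR adjusted p = 2.22e-07), with the strains 0.33 apart (95% interval -0.16 to 0.81).

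In ppp1r3c2b (ENSDARG00000015657), a subunit that brings protein phosphatase 1 to glycogen, nkd1-/- was the group apart. It was at 1.40, 2.04 and 1.40 CPM in nkd1-/- and at 20.9, 14.7 and 14.8 CPM in the double mutant. TL, Tu and axin2-/- samples lay between 13.9 and 27.8 CPM, so the double mutant had the level of the unmutated strains (log2 difference from nkd1-/- 3.38 ± 0.20, edgeR adjusted p = 1.0e-08). The deubiquitinase gene usp16 (ENSDARG00000060633) was likewise low in nkd1-/-, at 0.491 to 1.01 CPM against 3.62 to 5.03 CPM in the double mutant and 1.80 to 4.48 CPM in the strains. The small GTPase gene rasd2a (ENSDARG00000052222) was at 7.17, 12.3 and 10.9 CPM in the double mutant and 8.47 to 14.6 CPM in axin2-/-, and at 1.34 to 2.65 CPM in all samples of nkd1-/-, TL and Tu. Both lines with the axin2 mutation were high.

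Of the 5 largest bounded falls, the double mutant was the lowest group in each. IL1RAPL1 (ENSDARG00000062045), a synaptic adhesion molecule of the interleukin 1 receptor family, was at 1.39, 0.940 and 1.001 CPM in the double mutant and at 6.79, 6.71 and 7.11 CPM in nkd1-/-. TL was at 3.48 to 3.93 CPM, Tu at 2.05 to 4.25 CPM and axin2-/- at 4.99 to 7.502 CPM. The double mutant lay below both strains and nkd1-/- above both, and the difference was -2.63 ± 0.26 on the log2 scale (edgeR adjusted p = 4.48e-06). The aspartic peptidase gene napsa (ENSDARG00000009313) was at 0.102 to 0.138 CPM in the double mutant, 1.73 to 4.07 CPM in nkd1-/-, 1.30 to 1.93 CPM in axin2-/- and 5.99 to 10.9 CPM in the strains, so all 3 mutants were below TL and Tu. TMC1 (ENSDARG00000056386), a channel subunit of hair cells, was at 0.265 to 0.435 CPM in the double mutant against 3.76 to 3.93 CPM in nkd1-/- and 2.23 to 3.89 CPM in the strains. For ccdc15 (ENSDARG00000067517), a coiled-coil protein gene, the double mutant held 0.148 to 0.367 CPM and the other 12 samples 2.46 to 4.50 CPM. For PPP4R4 (ENSDARG00000010407), a protein phosphatase 4 subunit, the double mutant held 0.556 to 0.713 CPM and the other 12 samples 2.44 to 4.63 CPM.

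**Figure D3:**
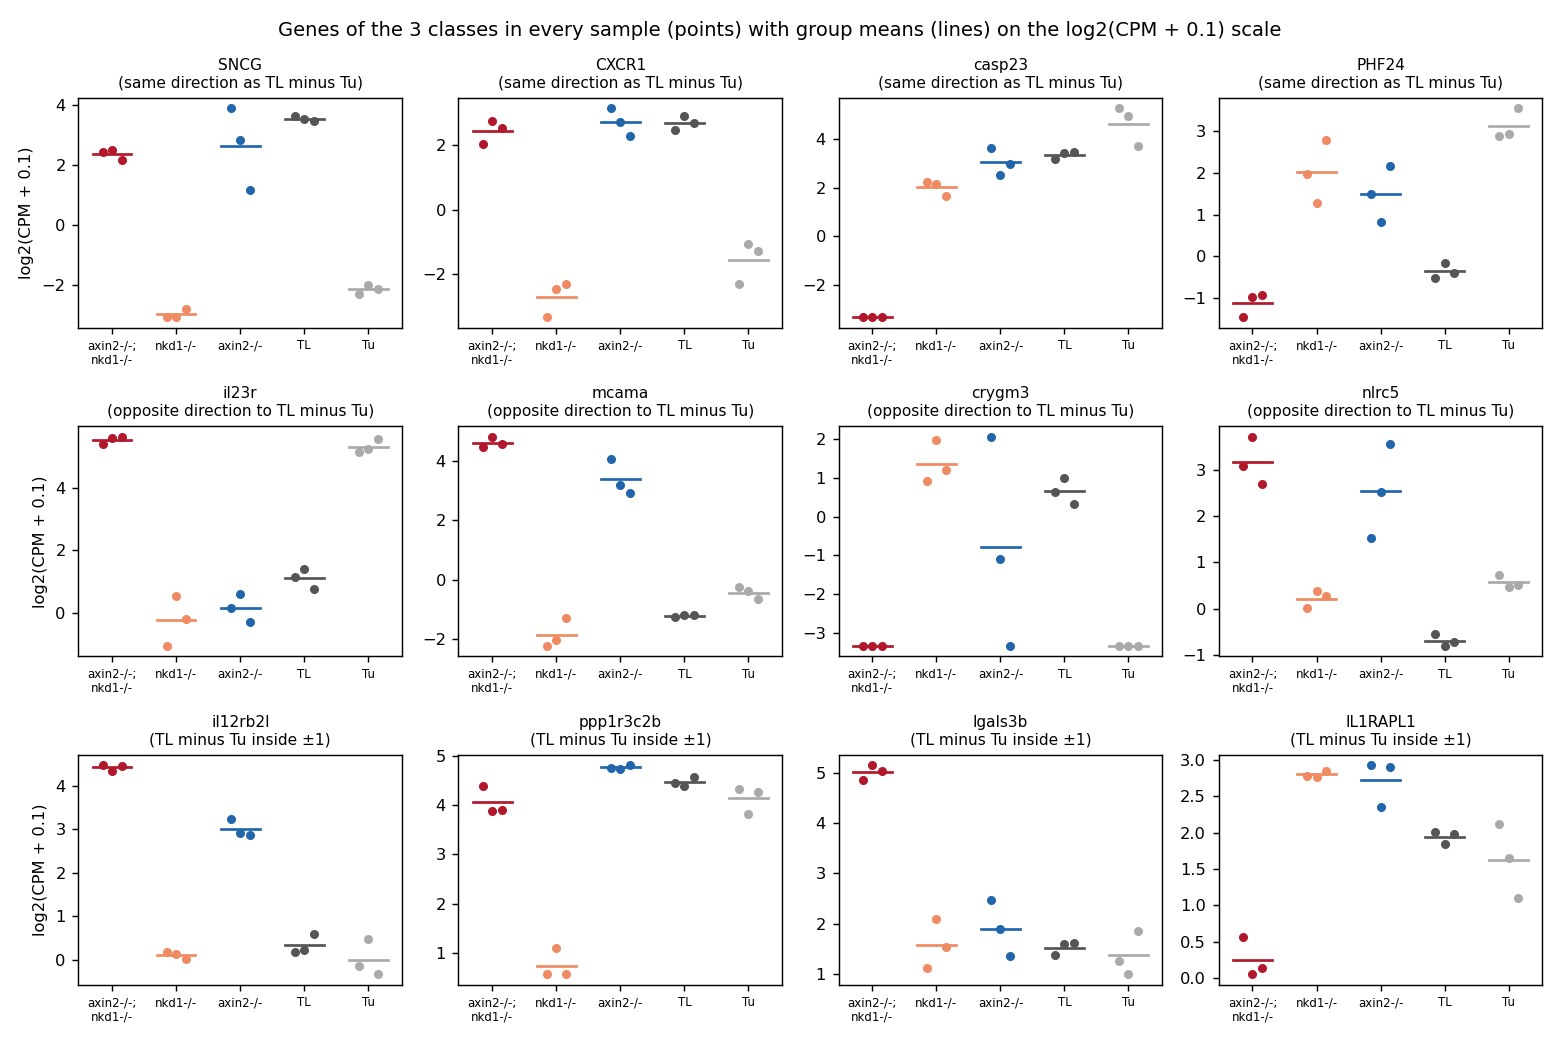
Level of 12 named genes on the log2(CPM + 0.1) scale (y axes) in the 5 groups (x axis), with 1 point per sample and a line at each group mean. Top row, genes in which the strains differ in the same direction as the mutants; middle row, genes in which they differ in the opposite direction; bottom row, bounded genes, where TL and Tu are close and the double mutant (il12rb2l, lgals3b), nkd1-/- (ppp1r3c2b) or both (IL1RAPL1) lie apart from both strains.

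Loss of axin2 with nkd1 intact, axin2-/- against TL, gave 4592 called genes (21.2%), 2297 higher (10.6%) and 2295 lower (10.6%). Of the 805 bounded genes, 214 (26.6%) were also called there, 123 in the same direction as in the double mutant and 91 in the opposite direction. The split was 76 and 194 in the same-direction class, 112 and 28 in the opposite-direction class, and 89 and 52 in undetermined genes. The axin2-/- comparison shares no sample with the double mutant comparison, but it shares TL with the strain comparison that defined the classes. TL enters the strain difference and the axin2-/- difference with opposite signs, so these splits are not free of the definition. Of the 10 named bounded genes, il12rb2l, rasd2a, usp16, napsa and TMC1 were called in the same direction in axin2-/- and IL1RAPL1 in the opposite one. The remaining 4 named genes, lgals3b, ppp1r3c2b, ccdc15 and PPP4R4, had edgeR adjusted p values of 0.257 to 0.664 in axin2-/- against TL.

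Few Wnt pathway genes differed between the double mutant and nkd1-/-. Over lists of feedback and target genes, ligands and receptors, transducers and inhibitors, 3 of 98 genes tested were called (3.06%, against 11.5% of all genes), 2 higher and 1 lower. The median log2 difference was 0.02, against -0.01 over all genes, and 17 had an unadjusted p under 0.05. Every called gene passes that cut, so at least 11.5% of all genes did, here and for the lists below. In 70 of the 98 the 95% interval lay inside -1 to 1, so a 2-fold change was outside it. Between TL and Tu 25 of the 98 were called, where 31.1% of all genes were. Between axin2-/- and TL 24 were called, where 21.2% of all genes were. The count of 3 was 7 by DESeq2, which called 3329 of all 21614 genes. It was 7 without nkd1-/- replicate 2 (2738 of 22226 genes called) and 1 without double mutant replicate 3 (1444 of 22182).

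None of the 28 Wnt feedback and target genes was called by edgeR's test (11.5% of all genes were), 6 had an unadjusted p under 0.05, and DESeq2 called 1. The count was 2 without nkd1-/- replicate 2. The T-box gene tbxta, a mesoderm target of Wnt8, was at 776, 732 and 791 CPM in the double mutant and at 691, 1007 and 801 CPM in nkd1-/-, with an interval of -0.43 to 0.18. The feedback gene SP5 was at 66.3, 70.15 and 74.8 CPM and at 54.0, 74.4 and 71.3 CPM, with an interval of -0.21 to 0.37. In both the double mutant values lay within the nkd1-/- range or overlapped it. The ventral repressor gene vent, a Wnt8 and BMP target, was at 161, 151 and 161 CPM against 212, 163 and 204 CPM, a log2 difference of -0.29 ± 0.10 with edgeR adjusted p = 0.0648. The segmentation gene mespaa had the largest difference of the list at 0.77 ± 0.30 (edgeR adjusted p = 0.108), with TL below Tu by 1.04 on the log2 scale. TCF7, a nuclear effector, differed by -0.60 ± 0.28 (edgeR adjusted p = 0.19) between the mutants and by 1.47 between the strains. The target genes cdx4 and msgn1 were spread widely in nkd1-/-, with replicate 2 the highest of the 3 at 95.1 and 114 CPM and the others at 38.6 to 59.7 CPM.

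**Figure D4:**
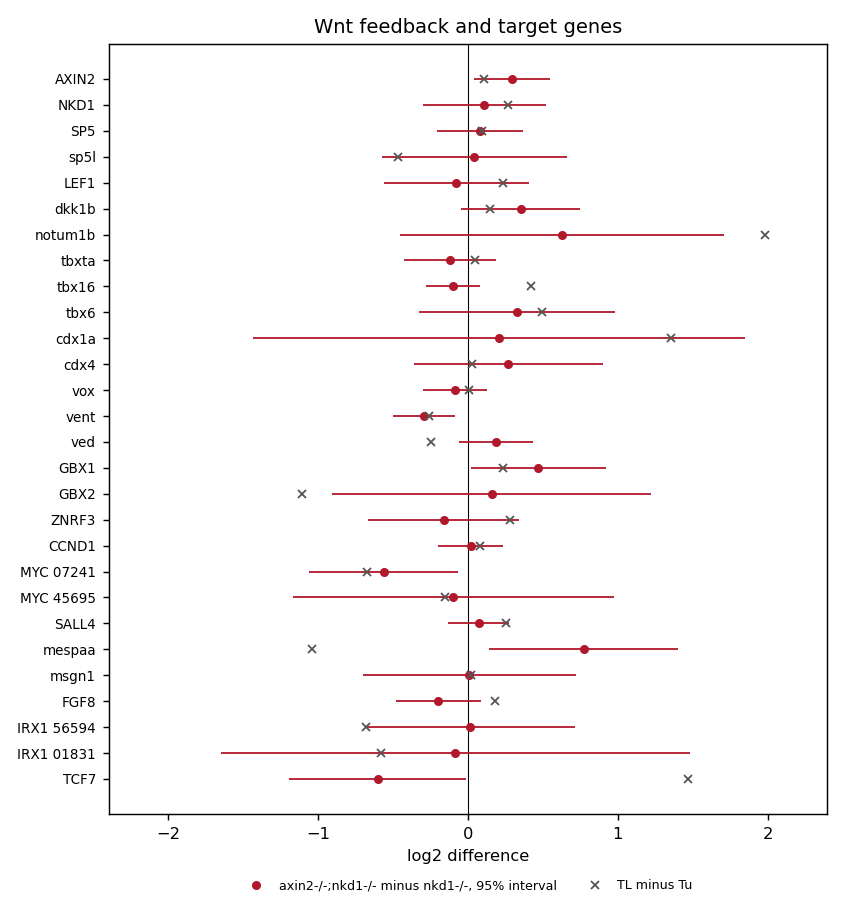
Log2 difference (x axis) of axin2-/-;nkd1-/- minus nkd1-/- with its 95% interval (red points and lines) and of TL minus Tu (grey crosses) for the 28 Wnt feedback and target genes tested (y axis); where 2 genes share a name, the last digits of their identifiers are added. The red points lie between -0.60 and 0.77, and none passed the adjusted threshold.

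Of 29 Wnt ligand and receptor genes, FZD9 (ENSDARG00000014673), a Frizzled receptor, was called (3.45%). It was at 24.99, 25.7 and 27.3 CPM in the double mutant and at 12.2, 20.7 and 13.7 CPM in nkd1-/-, without overlap, a difference of 0.74 ± 0.19 (edgeR adjusted p = 0.0161), and TL and Tu were 0.07 apart. The call was lost without double mutant replicate 3 (edgeR adjusted p = 0.0625), nkd1-/- replicate 1 (0.0741) or nkd1-/- replicate 3 (0.0786). Of 33 transducers 2 were called (6.06%). Of these, DVL3 (ENSDARG00000103462), a Dishevelled gene, rose from 0.151 to 0.233 CPM in nkd1-/- to 0.667 to 0.917 CPM in the double mutant (2.0 ± 0.39, edgeR adjusted p = 0.00230), with TL and Tu in between at 0.275 to 0.577 CPM. The kinase gene csnk1da (ENSDARG00000008370) fell by 0.25 on the log2 scale (edgeR adjusted p = 0.0428). The call was lost when any single library of the 6 was left out, with edgeR adjusted p of 0.0677 to 0.151. It was also lost without the filter on low counts (0.0626) and with only the 2 groups in the fit (0.0712). None of 17 inhibitors was called by edgeR's test, 1 had an unadjusted p under 0.05, and DESeq2 called 1.

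Of 25 dorsal organizer genes, admp rose and FGF3 fell (8%, against 11.5% of all genes), and the list's median was -0.04. The BMP-like organizer gene admp (ENSDARG00000025372) was at 34.8, 32.7 and 38.6 CPM in the double mutant and at 20.9, 24.1 and 26.8 CPM in nkd1-/- (0.56 ± 0.15, edgeR adjusted p = 0.0216). TL and Tu lay at 30.9 to 43.7 CPM, so nkd1-/- was the low group. The call was lost without double mutant replicate 3 (edgeR adjusted p = 0.0987) or nkd1-/- replicate 1 (0.0897). The ligand gene FGF3 (ENSDARG00000101540) was at 22.3 to 26.3 CPM against 29.7 to 36.3 CPM (-0.49 ± 0.13, edgeR adjusted p = 0.0182), a call lost when any of 4 libraries was left out, double mutant replicates 1 and 2 and nkd1-/- replicates 2 and 3 (0.0519 to 0.0781).

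Of 28 ventral and BMP pathway genes, szl rose and TBX2 fell (7.14%), and the list's median was -0.01. Sizzled, encoded by szl (ENSDARG00000099637), is a ventral inhibitor of the proteases that cleave Chordin. It was at 49.2, 78.9 and 56.5 CPM in the double mutant and at 32.0, 42.9 and 20.3 CPM in nkd1-/- (0.96 ± 0.25, edgeR adjusted p = 0.0203). TL and Tu lay at 76.9 to 136.0 CPM, and axin2-/- was at 18.8 to 20.7 CPM, the lowest group. The call was lost without double mutant replicate 2 (edgeR adjusted p = 0.113), nkd1-/- replicate 1 (0.0553) or nkd1-/- replicate 3 (0.0964). The T-box gene TBX2 (ENSDARG00000006120) was at 3.79, 6.69 and 6.86 CPM against 7.53, 14.8 and 14.1 CPM (-1.07 ± 0.31, edgeR adjusted p = 0.0336), with Tu below TL. Its call was lost without each library except nkd1-/- replicate 1 (edgeR adjusted p 0.0589 to 0.12).

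Of 29 mesendoderm genes 3 fell and none rose, 10.3% against 11.5% of all genes, and the list's median was 0.01. The Nodal target mixl1 (ENSDARG00000069252), a homeobox gene, was at 235, 231 and 236 CPM in the double mutant and at 349, 250 and 302 CPM in nkd1-/- (-0.36 ± 0.10, edgeR adjusted p = 0.0336). The segmentation clock genes her1 (ENSDARG00000014722) and her7 (ENSDARG00000017917) are neighbours in zebrafish and oscillate together. For her1 the values were 59.4, 33.9 and 53.4 CPM against 78.0, 150.5 and 49.3 CPM, which overlap (-0.92 ± 0.28, edgeR adjusted p = 0.0426). For her7 they were 50.5, 29.1 and 36.0 CPM against 88.5, 85.7 and 40.8 CPM, which also overlap (-0.89 ± 0.24, edgeR adjusted p = 0.0230). In both, nkd1-/- replicate 3 fell among the double mutant samples. TL and Tu differed little in the 3 genes (-0.22, 0.20 and -0.12), and all 3 were bounded. The list's count was 0 without double mutant replicate 2, double mutant replicate 3 or nkd1-/- replicate 1, and 1 without nkd1-/- replicate 2, where her1 differed by -0.38 (edgeR adjusted p = 0.274). With only the 2 groups in the fit the edgeR adjusted p was 0.0843 for mixl1, 0.123 for her1 and 0.0719 for her7. The mixl1 call was also lost without double mutant replicate 1 (edgeR adjusted p = 0.0696) or nkd1-/- replicate 3 (0.0923), and without nkd1-/- replicate 1 its difference was -0.23.

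**Figure D5:**
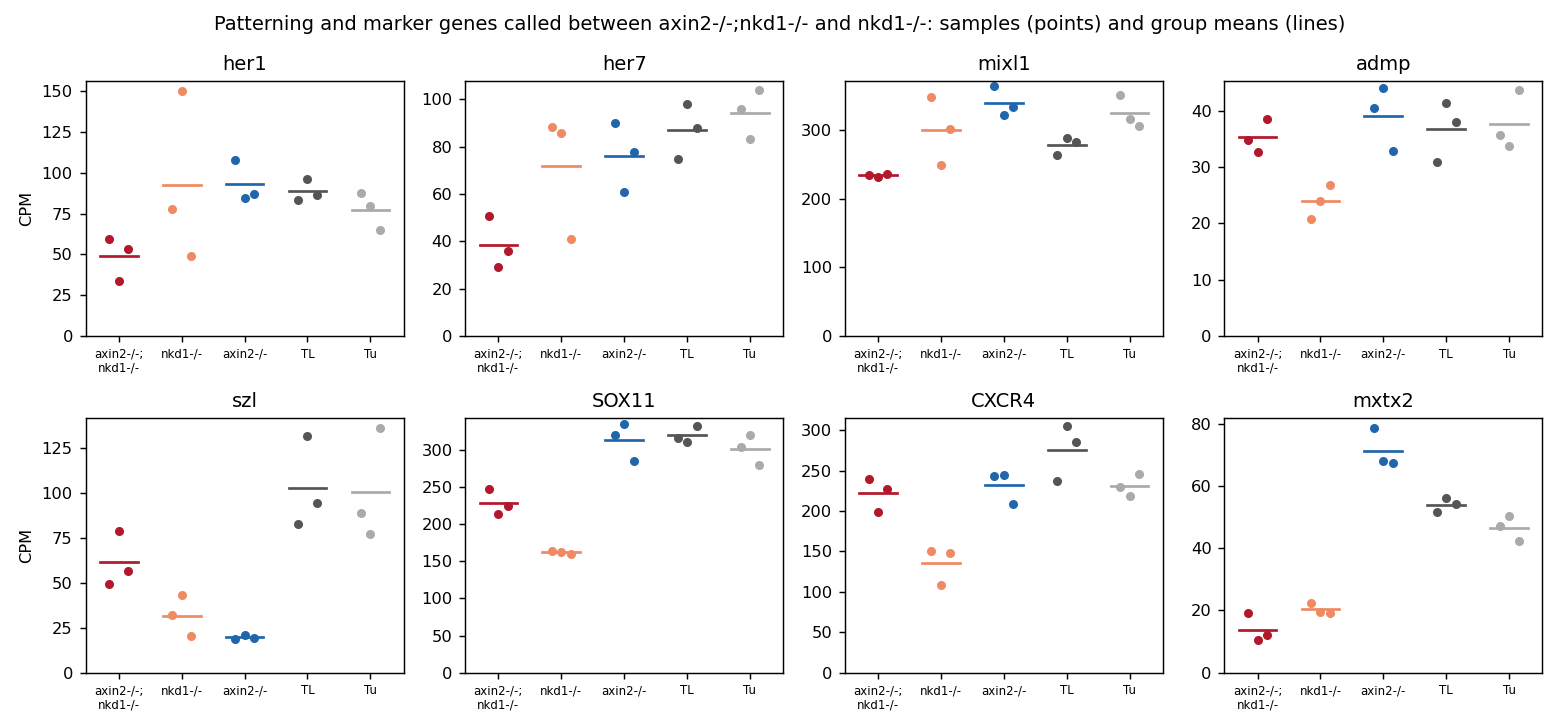
CPM (y axes, from 0) of 8 called patterning and marker genes in the 5 groups (x axis), with 1 point per sample and a line at each group mean. In her1 and her7 the nkd1-/- points are spread from the double mutant range upward, in admp, SOX11 and CXCR4 nkd1-/- is the lowest group, and in mxtx2 both nkd1-/- and the double mutant lie below the other 3 groups.

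Called genes of the maternal and germ line lists differed by less than 1 on the log2 scale. Of 16 maternal pluripotency genes 1 was called (6.25%, against 11.5% of all genes). This was SOX11 (ENSDARG00000077811), a SoxC factor, at 248, 214 and 225 CPM in the double mutant and at 164, 163 and 160.4 CPM in nkd1-/- (0.50 ± 0.09, edgeR adjusted p = 0.00119), and both were below TL and Tu at 281 to 333 CPM. In all 16 the 95% interval lay inside -1 to 1. Of 21 maternal transcripts known to be cleared 1 was called (4.76%). The gene h1m (ENSDARG00000102892), a maternal linker histone also on the germ cell list, fell from 294 to 432 CPM in nkd1-/- to 202 to 251 CPM (-0.72 ± 0.14, edgeR adjusted p = 0.00238), while TL exceeded Tu by 0.60. Of 10 genes matched to the 9 listed germ cell markers 2 were called (20%, against 11.5% of all genes), h1m and CXCR4 (ENSDARG00000057633), a receptor gene. The list held cxcr4b, but the symbol CXCR4 can be shared by paralogs. Whether the called gene is the listed copy could not be told from its name. CXCR4 was at 239.9, 199 and 228 CPM against 151, 109 and 148 CPM (0.71 ± 0.13, edgeR adjusted p = 0.00137), with TL and Tu at 218 to 306 CPM and nkd1-/- the low group.

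Markers of the enveloping layer, the outer epithelium, and of the yolk syncytial layer, which feeds the embryo, were the lists with the largest single rises. Of 20 enveloping layer genes the annexin genes ANXA1 (ENSDARG00000026726) and anxa1b (ENSDARG00000100095) rose (10%, against 11.5% of all genes). ANXA1 was at 457, 414 and 472 CPM in the double mutant and at 151, 294 and 159 CPM in nkd1-/- (1.15 ± 0.25, edgeR adjusted p = 0.00500), with TL and Tu at 159 to 251 CPM. For anxa1b the double mutant was at 39.6, 52.4 and 43.4 CPM and nkd1-/- at 7.55, 16.2 and 8.88 CPM (2.06 ± 0.27, edgeR adjusted p = 8.75e-05), while Tu was at 28.5 to 30.0 CPM and TL at 3.37 to 6.10 CPM. The summed level of the list overlapped between the groups, 13789 to 14446 CPM in the double mutant and 12398 to 18265 CPM in nkd1-/-, and its median difference was -0.12.

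Of 21 yolk syncytial layer genes 3 rose and 2 fell (23.8% against 11.5% of all genes), with a median difference of 0.19. The apolipoprotein gene apoa1a (ENSDARG00000012076) was at 42.5, 29.0 and 42.4 CPM in the double mutant and at 3.32, 6.36 and 2.68 CPM in nkd1-/- (3.21 ± 0.46, edgeR adjusted p = 0.000204). TL was higher than Tu by 1.28, but all TL, Tu and axin2-/- samples, at 1.71 to 16.1 CPM, lay below the double mutant. The lipoprotein gene apobb.1 (ENSDARG00000022767) rose from 2.23 to 4.52 CPM to 8.82 to 21.8 CPM (2.29 ± 0.31, edgeR adjusted p = 0.000116), above TL and Tu at 2.63 to 8.28 CPM. The iron exporter gene SLC40A1 (ENSDARG00000000241) rose by 1.99 ± 0.47 (edgeR adjusted p = 0.00964). The fibronectin gene FN1 (ENSDARG00000019815) fell by 0.71 (edgeR adjusted p = 0.00884) and mxtx2 (ENSDARG00000015906), the homeobox gene that sets up the layer, fell by 0.56 (edgeR adjusted p = 0.0424). For mxtx2 both mutants, at 10.4 to 22.5 CPM, lay below TL and Tu at 42.3 to 56.1 CPM. Without double mutant replicate 2 the count fell from 5 to 2, with SLC40A1 at 0.0592, FN1 at 0.0542 and mxtx2 at 0.2, all edgeR adjusted p. The mxtx2 call was also lost without double mutant replicate 3 or any one nkd1-/- sample (edgeR adjusted p 0.051 to 0.187), and with only the 2 groups in the fit (0.129). Summed levels overlapped, 6081 to 6483 CPM against 4651 to 7153 CPM. Part of these lists is shared with other tissues, and the part of cell composition in the results above was not tested.

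All 13 mitochondrially encoded genes had a lower fitted level in the double mutant, with a median log2 difference of -0.47, and 4 were called, all falls (30.8%, against 11.5% of all genes called and 5.49% called lower). Their summed level was 14131 to 19550 CPM in the double mutant and 23265 to 27132 CPM in nkd1-/-, without overlap, and TL and Tu held 15738 to 21846 CPM. The double mutant thus overlapped the strains, and nkd1-/- lay above both. The 13 genes are not independent replicates. MT-CYB, cytochrome b of complex III, was at 2264, 1348 and 2067 CPM against 3044, 3143 and 2844 CPM (-0.67 ± 0.15, edgeR adjusted p = 0.00865). The cytochrome oxidase genes MT-CO1, MT-CO2 and MT-CO3 fell by 0.48, 0.51 and 0.55 on the log2 scale (edgeR adjusted p of 0.0180, 0.0214 and 0.0281). None of the 13 was called between TL and Tu, where 31.1% of all genes were. The count was 1 without double mutant replicate 2, the lowest of the 3 double mutant libraries in each of the 13 genes, and 2 without nkd1-/- replicate 2. MT-CO1 also lost its call without nkd1-/- replicate 3 (0.0617), and MT-CO2 and MT-CO3 lost theirs without nkd1-/- replicate 1 (0.0686 and 0.0645), all edgeR adjusted p.

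Of 21 p53 and stress genes DDIT3 (ENSDARG00000059836), a factor of the unfolded protein response, was called (4.76%, against 11.5% of all genes), at 5.17, 5.02 and 6.004 CPM in the double mutant and 2.93, 3.92 and 2.90 CPM in nkd1-/- (0.74 ± 0.19, edgeR adjusted p = 0.0177). TL exceeded Tu in it by 1.13, and the call was lost without double mutant replicate 3 (edgeR adjusted p = 0.0881), nkd1-/- replicate 1 (0.0681) or nkd1-/- replicate 3 (0.086). Of 26 ribosomal protein genes RPS2 (ENSDARG00000077291) was called (3.85%), at 641, 644 and 632 CPM against 369.5, 333 and 344 CPM (0.87 ± 0.16, edgeR adjusted p = 0.00181), with TL and Tu at 459.6 to 693 CPM. None of the 10 differentiated tissue markers tested was called by edgeR's test, 3 had an unadjusted p under 0.05, and DESeq2 called 2.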

How the data were processed

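RNA sequencing of 15 pools of zebrafish embryos was analysed from 1 deposited table of raw counts per Ensembl gene, 32520 genes and 15 samples, which the authors did not normalize. The submitters' processing notes name GRCz11 and edgeR 3.30.3; the aligner, counter and strand setting are not given in the sources used here, so overlapping or near-identical genes may share reads. Symbols came from a reference table that paired 29201 identifiers with names; many are human-style and can be shared by paralogs.

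Genes were filtered with filterByExpr (minimum count 10, minimum total 15), scaled by TMM and fitted with edgeR 4.0.16 (R 4.3.3), all 15 samples in 1 quasi-likelihood model by group, which left 10 residual degrees of freedom. P-values were adjusted by Benjamini-Hochberg over the 21614 genes tested. SEs came from the F statistic. Same, opposite, bounded and undetermined genes were defined from the TL minus Tu contrast. Floors of 3 counts and all intervals cover counting or replicate error only. Replicates differed by more than sampling noise (chi-square per degree of freedom 12.1 to 66.8). The steps were tested on simulated data. Lists and members were chosen with earlier results of these data known. Named genes were those targeted, called list members, and the 5 (opposite: 3) largest rises and falls per class with a mean of at least 1 CPM, no overlap and a usable symbol. Alternatives were DESeq2 1.42.0, its size factors, no filter, the 2 groups alone, a replicate block, a fold threshold, a narrower bound and leaving out each sample.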

Additional observations from a re-analysis of the deposited data

Results flagged for a closer look

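For the named genes, the difference of the double mutant from nkd1-/- was set against the difference of axin2-/- from TL, as a contrast in the same edgeR fit. The genes below passed an adjusted p under 0.05. They were named for a large difference between the double mutant and nkd1-/-, which is part of this contrast, so passing it is no independent support. Each side also sets lines of different descent against each other, so a dependence on nkd1 and a difference between lines cannot be told apart. Values are log2, positive where the double mutant difference was the higher one.

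Among same-direction genes the excess was 8.079 for CBLN2 (edgeR adjusted p = 2.4e-05), 7.858 for SNCG, 6.297 for CXCR1, 6.877 for FLNC (edgeR adjusted p = 0.00213) and 5.021 for mark4a. It was -10.46 for casp23, -7.543 for ftr15, -5.876 for FAAH2, -9.094 for RASL10B and -5.644 for PHF24. RASL10B and PHF24 moved in opposite directions in the 2 comparisons, with axin2-/- higher than TL by 4.69 and 2.09. For casp23, CBLN2, FAAH2, SNCG, CXCR1, mark4a, ftr15 and RASL10B the fitted size rests on a group at or near 0 counts. For FLNC it rests on a split group.

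Among opposite-direction genes it was 1.893 for mcama (edgeR adjusted p = 0.0115), 6.856 for il23r, -10.05 for crygm3 (edgeR adjusted p = 0.0118) and -5.639 for XKR9. The double mutant had no count of crygm3, so its fitted value is no exact size. It had 4, 7 and 8 counts of XKR9, so that size is uncertain too. For il23r the double mutant difference was 5.85 and that of axin2-/- was -1.001.

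Among bounded genes it was 1.676 for il12rb2l (edgeR adjusted p = 0.00102), 2.965 for lgals3b, 3.085 for ppp1r3c2b, -1.897 for napsa, -3.951 for ccdc15, -2.068 for TMC1, -3.446 for IL1RAPL1 and -2.842 for PPP4R4. In il12rb2l, napsa and TMC1 both differences were called with the same sign and the double mutant one was larger. The signs were also the same in lgals3b and ppp1r3c2b, but their axin2-/- differences of 0.47 and 0.30 were not called. For napsa the double mutant held only 5, 6 and 7 counts.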

How the results depend on the processing

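With an absolute log2 difference of at least 1 added to the call, the double mutant and nkd1-/- differed in 1403 genes, TL and Tu in 3749, and the same-direction, opposite-direction and bounded classes held 396, 175 and 220. A bound of log2(1.5) in place of 1 left 448 bounded genes. Leaving out 1 sample at a time of the groups compared gave 1444 to 2738 genes for the mutants and 5333 to 5861 for the strains. Leaving out any 1 of these 12 samples gave 490 to 876 genes in the same direction, 208 to 428 in the opposite direction and 414 to 956 bounded. DESeq2 called 3329 genes between the mutants, of which 2473 were among the 2496, all in the same direction. Under every setting run, the share of called genes also called between TL and Tu was 38.8% to 49%, and 67.2% to 70.9% of those went the same way. DESeq2's size factors put 49.6% of the calls higher in the double mutant, against 52.4% by TMM.

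Replicate numbers were shared by the groups. Over all genes, same-numbered samples deviated together very little (correlations 0.00613 to 0.0628 between the mutants and 0.00448 to 0.0425 between TL and Tu). Other pairs of groups were not examined. A collection effect on part of the genes was not tested. With a replicate block the mutants differed in 2653 genes, of which 2394 were among the 2496. The block gave 853 same-direction, 385 opposite-direction and 875 bounded genes, and the her1 call was lost (edgeR adjusted p = 0.0609).

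For the 54 genes named or called on a list, 263 of 270 values under other settings kept their side of the threshold and 7 lost their call. Under single-sample omission 268 of 324 kept their side of the threshold, 54 lost it, AXIN2 gained it and NKD1 ranged from -0.01075, a reversal, to 0.2574. The cause of these changes was not tested; omission leaves fewer samples. Positions were not analysed, because 1666 called genes (66.7%) matched 1 symbol of the RefSeq table, under the 80% required, so the windows of other sizes were not run. Of the 544 genes with an undetermined strain difference, 291 averaged under 1 CPM in the 6 mutant samples.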

Other observations

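Gene families read from their symbols were counted after values had been seen, so the counts are descriptions. Membership rests on how the symbol starts, so a set can take in other genes with similar names. The interleukin set, for example, takes in IL1RAPL1. Of 51 interleukin and chemokine ligand or receptor genes 13 were called between the double mutant and nkd1-/- (25.5%, against 11.5% of all genes), 10 higher and 3 lower in the double mutant, and 15 were called between TL and Tu (29.4%). Of 17 MHC genes 5 were called (29.4%), and 9 between the strains (52.9%, against 31.1% of all genes). Of 46 finTRIM genes 8 were called (17.4%), and 22 between the strains (47.8%). These are families with many similar copies that may share reads. Of 317 zinc finger genes named znf 25 were called (7.89%), although 129 (40.7%) were called between the strains. Of 90 genes with symbols starting in rpl or rps and a digit 1 was called (1.11%). These are mostly ribosomal protein genes, but the pattern also fits S6 kinase symbols. Of 21 protocadherin genes none was called by edgeR's test. Genes without a usable symbol were called about as often (11.7%) as genes with one (11.5%).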
